A study of Homo sapiens with 12 samples.

Results

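The genes described here are 10 members of the bone morphogenetic protein (BMP) pathway: the ligands BMP2 and BMP4, the receptors BMPR1A and BMPR2, the signal transducers SMAD6 and SMAD9, and the target genes ID1, ID2, ID3 and ID4. They were taken as the rows of the count table whose Ensembl identifiers map to these symbols, 10 of 63568, and all 10 passed the filter on low counts that left 25249 genes for testing. RNA was measured in 12 samples of MDA-MB-231, a human triple negative breast cancer (TNBC) cell line with a mesenchymal appearance, grown as 3D cultures in droplets of Matrigel, a basement membrane extract. The samples form 6 conditions of 2 biological replicates each, namely untreated cultures taken on day 2 (C1) or day 4 (C2), and 4 doses of Paclitaxel (0.0005, 0.005, 0.05 and 0.5 μM) that by the sample labels were given on day 2, with RNA from day 4. The study's methods give a later day for the drug in the imaged cultures and refer to the same procedure for sequencing, so the length of exposure rests on the labels. All groups share the cell line, which is labelled WT and by the study's methods carries a GFP in the nucleus, and the Matrigel. Paclitaxel is a drug that stabilizes microtubules and arrests dividing cells. The series holds 1 cell line and no sample with a BMP added or blocked, so the values describe RNA levels and not signalling activity.

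BMPs are secreted dimers of the TGF-β superfamily. They bind a complex of type I receptors such as BMPR1A and type II receptors such as BMPR2, and the type II kinase switches on the type I kinase, which phosphorylates the receptor-regulated SMADs of the BMP branch, among them SMAD9. These enter the nucleus with SMAD4 and act on genes whose best known examples are ID1, ID2 and ID3. SMAD6, itself a target, is an inhibitory SMAD that feeds back on the receptors. ID proteins have a helix-loop-helix but no basic region, so they bind E proteins and keep them off DNA, and they are known in breast cancer cells for their part in proliferation, self-renewal and metastatic growth.

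The proximal promoters of the 4 ID genes, the readout end of the pathway, and of BMPR2, which edgeR called along the doses, are printed first, so that the letters can be seen beside the values. A window of the RefSeq table was matched to 9 of the 10 genes. For each printed gene, bases shortly after the start were found in sense in a GENCODE transcript of the gene. Each line holds the 250 bases before the RefSeq start on GRCh38.p14, read 5′ to 3′ on the strand of the gene. The windows are ID1 at chr20:31605039-31605288 (plus strand), ID2 at chr2:8681806-8682055 (plus strand), ID3 at chr1:23559502-23559751 (minus strand), ID4 at chr6:19837120-19837369 (plus strand) and BMPR2 at chr2:202376077-202376326 (plus strand). Capitals mark matches, on either strand, to 4 motifs: the GC-rich SMAD element GGCGCC, the SMAD box CAGAC, the CRE core TGACG and the CCAAT box.
ID1: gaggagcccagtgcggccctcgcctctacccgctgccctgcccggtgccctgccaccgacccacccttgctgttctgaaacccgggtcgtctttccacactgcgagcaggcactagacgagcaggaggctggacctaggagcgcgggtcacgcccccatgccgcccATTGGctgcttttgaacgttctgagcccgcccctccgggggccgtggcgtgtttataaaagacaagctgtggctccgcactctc
ID2: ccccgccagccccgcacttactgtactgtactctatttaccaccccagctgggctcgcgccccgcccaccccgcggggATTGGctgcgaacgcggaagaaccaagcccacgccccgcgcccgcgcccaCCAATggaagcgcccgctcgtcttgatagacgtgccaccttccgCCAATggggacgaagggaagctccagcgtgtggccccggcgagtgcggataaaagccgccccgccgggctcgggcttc
ID3: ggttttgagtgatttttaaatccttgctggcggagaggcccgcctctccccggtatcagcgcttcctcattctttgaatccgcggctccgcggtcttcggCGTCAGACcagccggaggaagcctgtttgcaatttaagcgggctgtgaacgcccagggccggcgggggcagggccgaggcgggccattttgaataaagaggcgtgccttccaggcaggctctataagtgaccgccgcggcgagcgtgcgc
ID4: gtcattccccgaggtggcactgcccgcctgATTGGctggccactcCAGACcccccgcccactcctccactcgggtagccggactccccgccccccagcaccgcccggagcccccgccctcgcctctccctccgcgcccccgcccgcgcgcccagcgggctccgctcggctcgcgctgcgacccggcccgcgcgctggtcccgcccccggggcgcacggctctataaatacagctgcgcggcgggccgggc
BMPR2: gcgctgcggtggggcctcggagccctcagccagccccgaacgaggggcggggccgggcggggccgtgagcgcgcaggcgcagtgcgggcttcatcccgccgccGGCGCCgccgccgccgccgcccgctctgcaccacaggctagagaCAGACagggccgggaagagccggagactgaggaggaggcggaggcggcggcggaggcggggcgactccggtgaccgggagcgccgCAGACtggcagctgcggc

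The CCAAT box matched 1 time in ID1, 3 times in ID2 and 1 time in ID4, and 32% of all 35116 RefSeq windows of this length held at least 1 match. The SMAD box, present in 38% of all windows, matched 1 time each in ID3 and ID4 and 2 times in BMPR2, and the CRE core, present in 21.2%, matched 1 time in ID3, where it overlaps the SMAD box. The GC-rich SMAD element, found in 16.4% of windows, matched 1 time in BMPR2. These are matches of letters in short windows, and binding was not measured.

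The counted reads per sample ran from 38380629 to 79169121, and mitochondrial genes took 3.73% to 7.74% of them. Replicate 2 of C1 had both the fewest reads and the highest mitochondrial share. The cells expressed VIM (797 to 1366 CPM, reads scaled to a common library size after TMM normalization), CD44, KRT8, KRT18 and EGFR, while ESR1 stayed at or below 0.46 CPM and PGR at or below 0.0867, as is known of triple negative cells, although ERBB2 RNA was present at 26.6 to 52.4 CPM. Of 5 epithelial markers CDH1 stayed at or below 0.201 CPM and ESRP1 at or below 0.851, while EPCAM (4.37 to 6.77 CPM), CLDN7 (up to 21.2) and KRT19 (144 to 277) were expressed. Of markers of other cell types, PTPRC, CD3E, COL1A2, DCN and FAP stayed at or below 0.281 CPM, while of the fibroblast list COL1A1 was at 4.80 to 9.85 CPM, PDGFRB at 3.61 to 9.15, COL3A1 at 0.129 to 1.52 and LUM at 0.0702 to 0.505. The summed leukocyte markers, nearly all CD14, were at 0.447 to 0.644 CPM in the 4 untreated and at 1.05 to 1.71 CPM in the 8 treated samples. The summed endothelial markers were at 0.0298 to 0.704 and 0.540 to 1.15 CPM, and the fibroblast markers at 8.83 to 16.9 and 12.3 to 19.7 CPM, in the same order, and the part of these differences in the results was not tested. The 2 C1 samples stood apart from each other: over the 10 genes the median difference between replicates was 0.42 on the log2 scale in C1 and 0.29 in C2, against 0.088 to 0.19 at the 4 doses.

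Per length of exon sequence, ID1 was the most abundant of the 10 genes, and the 4 ID genes had the highest means among them. The levels over all 12 samples were 118 ± 34.1 CPM per kb (SD, n = 12) for ID1 and 67.8 ± 13.1 for ID3, and each of these lay above the next gene in all 12 samples. ID4 at 14.8 ± 3.12 and ID2 at 12.7 ± 1.91 CPM per kb were neighbours that changed places, with ID4 higher in 8 of 12 samples, and ID2 lay above BMP4 (9.88 ± 0.958) in 10. BMP4 was the more abundant ligand, followed in all 12 samples by BMPR1A (6.31 ± 0.984) and then BMPR2 (4.41 ± 0.687). The lowest levels were those of BMP2 (0.936 ± 0.187), SMAD6 (0.814 ± 0.226) and SMAD9 (0.735 ± 0.120 CPM per kb), which overlapped one another and kept their order in 9 of 12 samples at each step. No order between neighbours was tested, and the SDs hold the differences between conditions as well as those between replicates. RNA was taken from whole cultures, so fewer cells of a kind and less RNA per cell cannot be told apart in these levels or in any change of them.

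**Figure D1:**
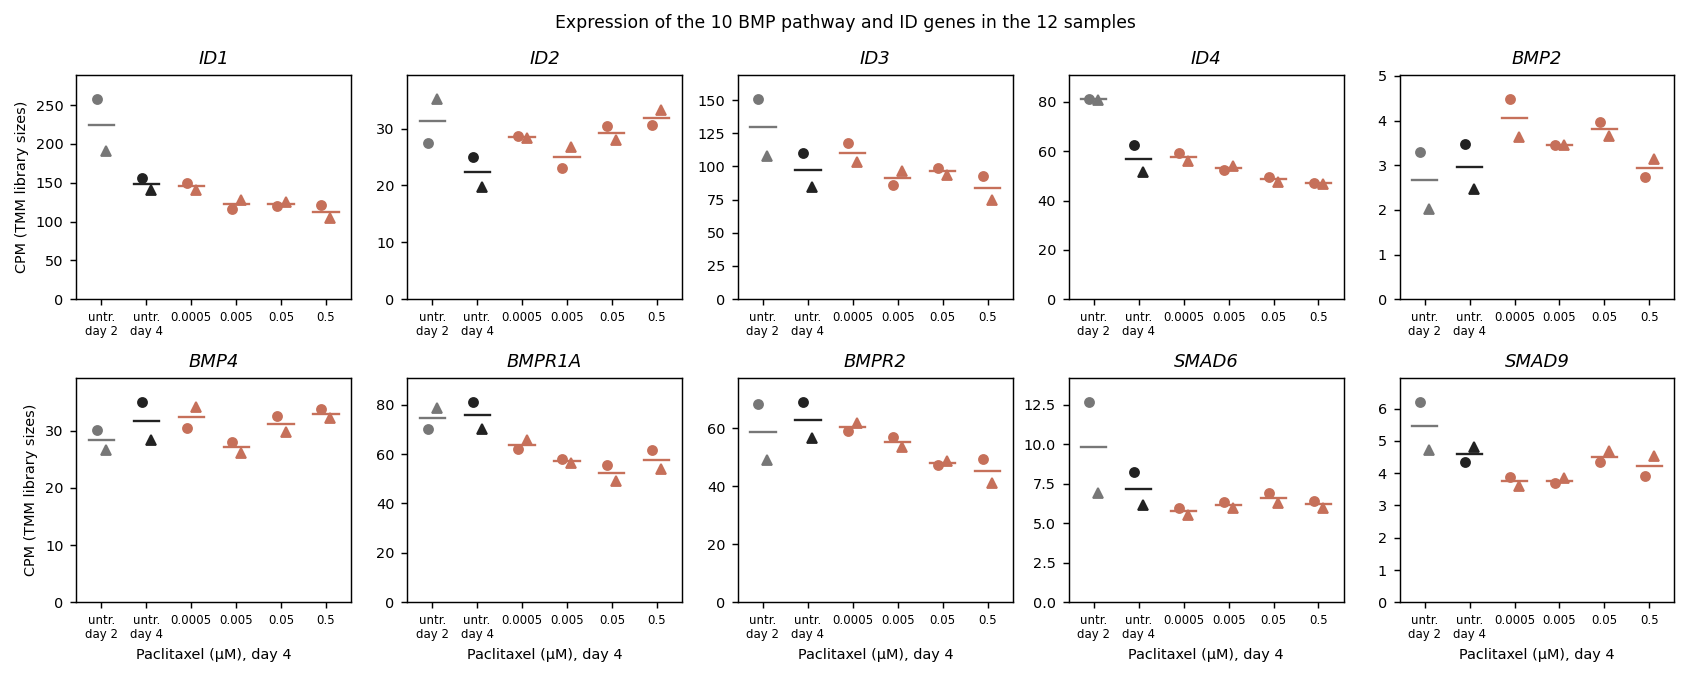
Expression of the 10 genes in CPM with TMM library sizes (y axis, from 0) in the 6 conditions (x axis, untreated days and Paclitaxel dose in μM). Circles are replicate 1, triangles replicate 2 and lines the mean of the 2. All 8 treated samples of BMPR1A (49.2 to 65.7 CPM) lie below all 4 untreated ones (70.2 to 81.2 CPM), the means of ID1, ID3 and ID4 are highest on day 2, and that of ID2 is lowest in C2.

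Each dose was compared with C2, so these 4 comparisons and that of the mean of the 4 doses share 2 control samples, and C2 was compared with C1. Calls are genes with an adjusted p under 0.05 (edgeR's quasi-likelihood F test, two-sided, p-values adjusted by Benjamini-Hochberg over all tested genes). For 1 gene, exact permutation of 4 samples in 2 groups reaches no p-value under 0.333, and each call between 2 conditions thus rests on the spread that the 12 samples share. The mean of the doses was tested in the same fit. Calls along the doses rest on the spread of the 8 treated samples, which had a fit of their own. At 0.0005 μM 0 of the 10 genes were called by edgeR and 0 by DESeq2, and 2.34% of all tested genes were called by edgeR and 4.65% by DESeq2. At an unadjusted p under 0.05 stood 0 of the 10, against 17% of all genes. At 0.005 μM edgeR and DESeq2 called 0, against 3.28% of all genes called by edgeR and 5.39% by DESeq2, and 1 had an unadjusted p under 0.05 (18.7% of all genes). None of the 10 genes thus passed at the lower 2 doses. At 0.05 μM both called 1 gene, BMPR1A (against 8.32% of all genes by edgeR and 10.6% by DESeq2), and 3 had an unadjusted p under 0.05 (23.7% of all genes). At 0.5 μM edgeR and DESeq2 called 0, against 6.32% of all genes called by edgeR and 9.11% by DESeq2. There 4 of the 10 had an unadjusted p under 0.05 (ID1, ID2, BMPR1A and BMPR2), as did 22.9% of all genes. The mean of the 4 doses gave 1 call (BMPR1A) with either tool, against 9.74% of all genes by edgeR and 12% by DESeq2, and 2 had an unadjusted p under 0.05 (25.4% of all genes). BMPR1A was thus the gene called in both dose comparisons that gave a call. Between C1 and C2 edgeR called 0, and 0.325% of all genes, while DESeq2 called 2 of the 10 (ID1 and ID4) and 0.962% of all genes. An unadjusted p under 0.05 was found for 3 of the 10 and for 10% of all genes. The trend along log10 dose, fitted to the 8 treated samples, gave 1 call (BMPR2) by edgeR, which called 3.15% of the 25057 genes tested, and 3 by DESeq2 (ID1, ID4 and BMPR2), which called 6.06%. There 5 of the 10 had an unadjusted p under 0.05 by edgeR, against 18.4% of all genes. Along time and dose, DESeq2 called ID1 and ID4 where edgeR did not. Between 0.5 and 0.0005 μM both tools called 0, against 0.412% of all genes called by edgeR and 2.04% by DESeq2, and 3 had an unadjusted p under 0.05 (14.7% of all genes). In the lower direction the share of calls among all genes was 3.23% at 0.05 μM, 4.1% for the mean of the doses and 2.11% for the slope.

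The median log2 fold change of the 10 genes was -0.0065, -0.20, -0.073 and -0.21 at 0.0005, 0.005, 0.05 and 0.5 μM, beside -0.011, 0.036, -0.011 and 0.036 for all tested genes and -0.042, -0.12, -0.11 and -0.11 for the 11193 genes above 8 CPM on average. For C2 against C1 the median of the 10 was -0.34, that of all genes -0.023 and that of the genes above 8 CPM -0.10.

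**Figure D2:**
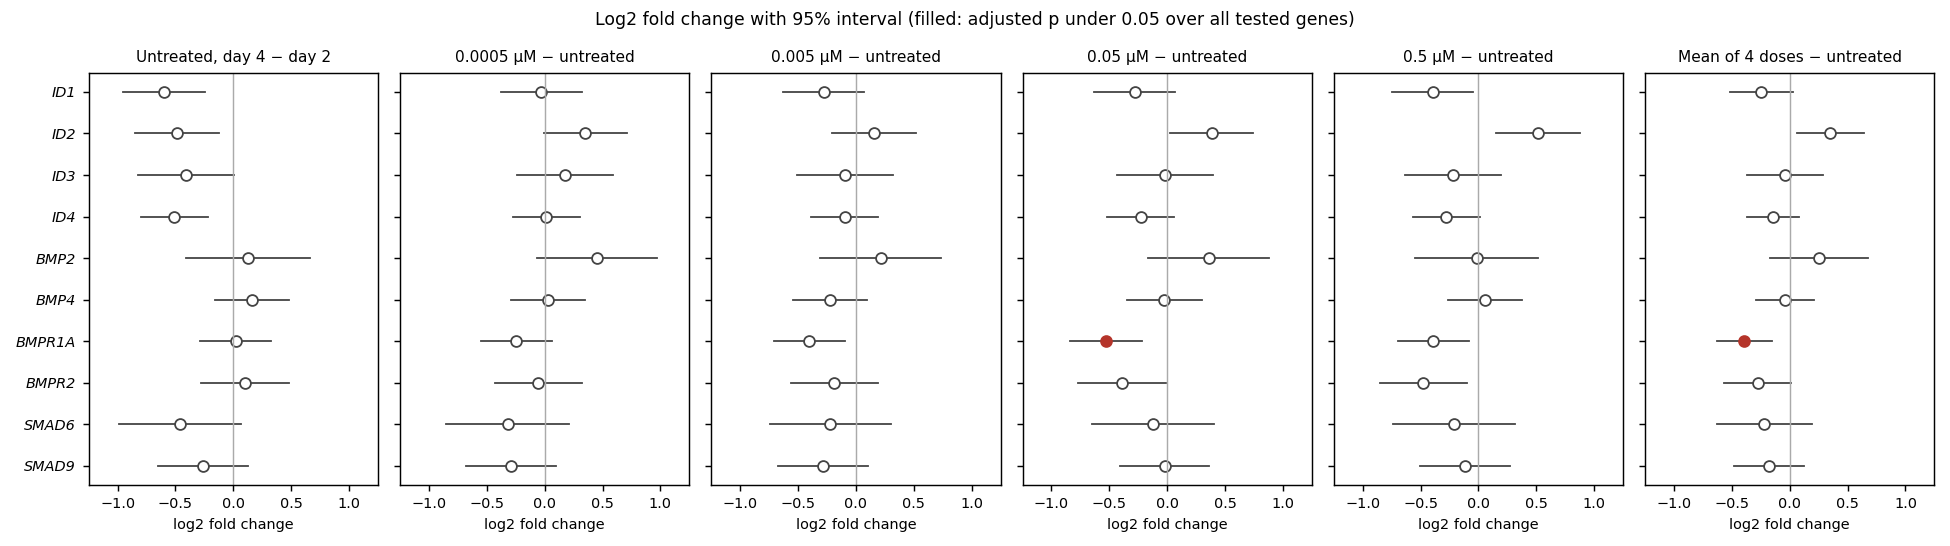
Log2 fold change (x axis) of the 10 genes (y axis) for C2 against C1, each dose against C2 and the mean of the 4 doses against C2, with 95% intervals from the fit to all 12 samples. Points are filled where the adjusted p is under 0.05, which holds for BMPR1A at 0.05 μM (-0.53) and for the mean of the doses (-0.39). ID1 to ID4 lie left of 0 between the days.

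Neither ligand passed the test in any comparison. BMP2 (ENSG00000125845, chr20:6748333-6760893, plus strand) and BMP4 (ENSG00000125378, chr14:54416454-54425479, minus strand) encode secreted dimers, and coordinates here and below are those of GENCODE release 44 on GRCh37. BMP4 was at 30.1 and 26.6 CPM in C1 and 35.0 and 28.3 CPM in C2, then at 30.5 and 34.2 at 0.0005 μM, 28.1 and 26.1 at 0.005 μM, 32.5 and 29.8 at 0.05 μM and 33.7 and 32.2 CPM at 0.5 μM. The 12 samples overlapped, with a highest value 1.34 times the lowest. The log2 fold changes of BMP4 against C2 were 0.030, -0.23, -0.023 and 0.057 with standard errors of 0.15 and adjusted p-values by edgeR of 0.938, 0.436, 0.948 and 0.850. The 95% interval at 0.5 μM ran from -0.26 to 0.38, and the signs at 0.0005, 0.05 and 0.5 μM turned when 1 of the C2 samples was left out. The exons of BMP4 share 506 bases with a gene on the opposite strand, and the strand used in counting is not given in the sources used here, so a part of these reads may belong to that gene.

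BMP2 was at 3.30 and 2.03 CPM in C1 and 3.47 and 2.47 CPM in C2, then at 4.49 and 3.64 at 0.0005 μM, 3.44 and 3.45 at 0.005 μM, 3.97 and 3.65 at 0.05 μM and 2.75 and 3.15 CPM at 0.5 μM. These levels rest on 68 to 338 counts. Both samples at 0.0005 μM and both at 0.05 μM lay above both C2 samples, as did those of 27.1% and 26.1% of all tested genes, and those at 0.005 and 0.5 μM lay inside the range of C2. The fold changes against C2 were 0.45 (standard error 0.24) at 0.0005 μM, 0.21 and 0.36 at the next 2 doses and -0.015 at 0.5 μM, where the 95% interval ran from -0.54 to 0.51 and the sign turned in several alternatives. Without replicate 2 of C2 the first 3 values were 0.22, -0.020 and 0.12. The slope per 10-fold dose was -0.12 (standard error 0.058, adjusted p by edgeR = 0.268).

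By edgeR the receptors were the 2 of the 10 genes that passed the test, while DESeq2 also called ID1 and ID4. BMPR1A fell at 0.05 μM and over the mean of the doses, to 0.693 and 0.763 times C2, and BMPR2 fell along the doses. Each of these comparisons held 1 call by edgeR among the 10, beside 8.32%, 9.74% and 3.15% of all genes in turn. BMPR1A (ENSG00000107779, chr10:88516353-88692582, plus strand) encodes a type I receptor kinase and BMPR2 (ENSG00000204217, chr2:203241050-203432474, plus strand) the type II receptor that activates it. BMPR1A was at 70.2 and 78.8 CPM in C1 and 81.2 and 70.2 CPM in C2, then at 62.0 and 65.7 at 0.0005 μM, 58.1 and 56.5 at 0.005 μM, 55.7 and 49.2 at 0.05 μM and 61.7 and 53.9 CPM at 0.5 μM. Every treated sample lay below all 4 untreated samples, which holds for 5.77% of all tested genes. Among the 10 genes BMPR1A was the only one with this pattern in either direction. BMPR1A fell at 0.05 μM (log2 fold change -0.53, standard error 0.14, adjusted p = 0.0392, edgeR) and for the mean of the 4 doses (-0.39, standard error 0.11, adjusted p = 0.0421). At 0.0005, 0.005 and 0.5 μM the log2 fold changes were -0.25, -0.40 and -0.39 with adjusted p of 0.402, 0.148 and 0.125. Between the days the difference was 0.023 (95% interval -0.28 to 0.33), and its sign turned with RLE normalization (-0.0036).

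The call of BMPR1A at 0.05 μM was lost without any 1 of the 10 samples of day 4 (log2 fold change -0.64 to -0.42, adjusted p 0.0584 to 0.283), with offsets for GC content and gene length (-0.34, adjusted p = 0.0653) and with no filter beyond 1 count (adjusted p = 0.0925), and was kept without either C1 sample. The mean of the doses lost its call without any 1 day 4 sample other than replicate 1 at 0.5 μM (adjusted p 0.0503 to 0.456), with the offsets (-0.27, adjusted p = 0.0516) and with no filter (0.0851).

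BMPR2 was at 68.4 and 48.9 CPM in C1 and 69.1 and 56.8 CPM in C2, then at 59.2 and 61.8 at 0.0005 μM, 57.0 and 53.6 at 0.005 μM, 47.3 and 48.7 at 0.05 μM and 49.3 and 41.2 CPM at 0.5 μM. The samples at 0.05 and 0.5 μM lay below all 4 untreated samples apart from replicate 1 at 0.5 μM, whose 49.3 CPM exceeded the 48.9 CPM of replicate 2 of C1. Within the treated samples BMPR2 fell with dose, with a slope of -0.15 per 10-fold dose (standard error 0.036, adjusted p = 0.0404, edgeR). The doses gave BMPR2 log2 fold changes against C2 of -0.057, -0.19, -0.39 and -0.48, with adjusted p of 0.898, 0.589, 0.195 and 0.127, and 0.5 against 0.0005 μM gave -0.42 (standard error 0.17, adjusted p = 0.293). Without replicate 1 of C2 the 4 values against C2 were 0.093, -0.040, -0.24 and -0.33. The slope lost its call without 6 of the 8 treated samples in turn, namely either at 0.0005 μM (adjusted p 0.22 and 0.14), either at 0.005 μM (0.0609 and 0.0816), replicate 1 at 0.05 μM (0.0673) or replicate 2 at 0.5 μM (0.221). BMPR1A had a slope of -0.056 (adjusted p = 0.493).

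The SMADs were scarce, and edgeR called neither in any comparison. SMAD9 (ENSG00000120693, chr13:37418968-37495024, minus strand) encodes a receptor-regulated SMAD, and it was at 6.21 and 4.71 CPM in C1 and 4.34 and 4.82 CPM in C2, then at 3.90 and 3.59 at 0.0005 μM, 3.69 and 3.84 at 0.005 μM, 4.34 and 4.67 at 0.05 μM and 3.92 and 4.54 CPM at 0.5 μM. The highest value, 6.21 CPM, was that of replicate 1 of C1, and the 4 samples at the lowest doses lay below all 4 untreated samples, as for 8.27% of all tested genes, while those at 0.05 and 0.5 μM overlapped them. SMAD9 had log2 fold changes of -0.29, -0.28, -0.023 and -0.12 at the 4 doses, with standard errors of 0.18, and the adjusted p-values by edgeR ran from 0.419 to 0.958. The value at 0.05 μM turned to 0.089 with offsets for GC content and gene length.

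SMAD6 (ENSG00000137834, chr15:66994574-67075187, plus strand) encodes the inhibitory SMAD, and it was at 12.7 and 6.92 CPM in C1 and 8.25 and 6.15 CPM in C2, then at 6.00 and 5.54 at 0.0005 μM, 6.37 and 5.99 at 0.005 μM, 6.92 and 6.32 at 0.05 μM and 6.44 and 6.00 CPM at 0.5 μM. Replicate 1 of C1 stood far above the other 11 samples, and the 2 C1 samples differed by 0.87 on the log2 scale, the largest replicate difference among the 10 genes. C2 against C1 was -0.46, standard error 0.24, adjusted p = 0.531 by edgeR, and became -0.79 (adjusted p = 0.0102, with 7.03% of all genes called) without replicate 2 of C1 and 0.061 without replicate 1, so its sign and its call rested on 1 library. The 4 doses against C2 gave -0.32, -0.22, -0.12 and -0.21 with standard errors of 0.24, and all 8 treated samples lay between 5.54 and 6.92 CPM. The values at 0.005, 0.05 and 0.5 μM turned to 0.0066, 0.10 and 0.015 without replicate 1 of C2. For SMAD6 the mean of the doses was -0.22 against C2 (adjusted p = 0.510) and -0.45 against both untreated days (adjusted p = 0.0404, with 26.3% of all genes called), which include replicate 1 of C1.

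The ID genes encode the helix-loop-helix proteins that bind E proteins. Their genes are ID1 (ENSG00000125968, chr20:30193086-30194318, plus strand), ID2 (ENSG00000115738, chr2:8818975-8824591, plus strand), ID3 (ENSG00000117318, chr1:23884417-23885992, minus strand) and ID4 (ENSG00000172201, chr6:19837601-19842428, plus strand). ID1 was at 258 and 191 CPM in C1 and 156 and 141 CPM in C2, then at 150.0 and 141 at 0.0005 μM, 116 and 128 at 0.005 μM, 120.0 and 125 at 0.05 μM and 121 and 105 CPM at 0.5 μM. Both C1 samples lay above all 10 samples of day 4, as for 5.4% of all tested genes, and 7 of the 8 treated samples lay below both C2 samples, where 17.8% of all genes had at least 7 there. C2 against C1 was -0.60, standard error 0.16, adjusted p = 0.240 by edgeR and -0.62 (adjusted p = 0.0403) by DESeq2, which called it. Without replicate 2 of C1 edgeR called it too (-0.77, adjusted p = 0.00236), together with 7.03% of all genes, and without replicate 1 the value was -0.36 (adjusted p = 0.122). Against C2, the log2 fold changes of ID1 were -0.029, -0.28, -0.28 and -0.40 (standard errors 0.16), with an adjusted p of 0.166 at 0.5 μM and a 95% interval there of -0.75 to -0.046, and the sign at 0.0005 μM turned without replicate 1 of C2 (0.046). The mean of the doses was -0.25 against C2 (adjusted p = 0.244) and -0.54 against both untreated days (adjusted p = 0.00188), a control with which 26.3% of all genes were called. The slope per 10-fold dose was -0.11 (adjusted p = 0.141 by edgeR and 0.0495 by DESeq2).

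ID4 was at 81.4 and 81.0 CPM in C1 and 62.6 and 51.4 CPM in C2, then at 59.3 and 56.0 at 0.0005 μM, 52.4 and 54.1 at 0.005 μM, 49.7 and 47.7 at 0.05 μM and 47.2 and 46.7 CPM at 0.5 μM. Both C1 samples lay above the other 10 samples, as for 5.4% of all tested genes. C2 against C1 was -0.51, standard error 0.13, adjusted p = 0.220 by edgeR, and -0.54 (adjusted p = 0.0162) by DESeq2. Without replicate 1 or replicate 2 of C1 edgeR called it (adjusted p = 0.0283 and 0.0319), together with 10% and 7.03% of all genes. The doses against C2 gave 0.016, -0.10, -0.23 and -0.28, of which the first turned to -0.036 with offsets for GC content and gene length and to -0.13 without replicate 2 of C2. Without replicate 1 of C2 the values at 0.005, 0.05 and 0.5 μM were 0.049, -0.081 and -0.13, and the mean of the doses was -0.00021. The 4 samples at 0.05 and 0.5 μM lay below all 4 untreated samples, as for 11.3% of all tested genes. The mean of the doses was -0.15 against C2 (adjusted p = 0.408) and -0.40 against both untreated days (adjusted p = 0.00362). The slope was -0.10 (adjusted p = 0.103 by edgeR and 0.0145 by DESeq2).

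ID3 was at 151 and 108 CPM in C1 and 110.3 and 84.6 CPM in C2, then at 117 and 103 at 0.0005 μM, 85.8 and 96.5 at 0.005 μM, 99.0 and 93.7 at 0.05 μM and 92.9 and 74.6 CPM at 0.5 μM. Replicate 1 of C1 was the highest and replicate 2 at 0.5 μM the lowest, and the groups overlapped, since replicate 2 of C1 fell inside the range of C2 and of the lowest dose. C2 against C1 was -0.41, standard error 0.19, adjusted p = 0.509 by edgeR and -0.60 (adjusted p = 0.0336) without replicate 2 of C1, where 7.03% of all genes were called, but -0.14 (adjusted p = 0.674) without replicate 1. Against C2, the log2 fold changes of ID3 were 0.18, -0.10, -0.017 and -0.22 (standard errors 0.19), with adjusted p-values from 0.526 to 0.972. The signs at 0.0005, 0.005 and 0.05 μM turned when 1 of the C2 samples was left out, and that at 0.5 μM shrank to -0.017 without replicate 1 of C2.

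ID2 did not pass the test either, and its log2 fold changes at the doses were above 0 in the fit to all samples. ID2 was at 27.5 and 35.3 CPM in C1 and 25.0 and 19.7 CPM in C2, then at 28.7 and 28.4 at 0.0005 μM, 23.1 and 26.7 at 0.005 μM, 30.4 and 27.9 at 0.05 μM and 30.6 and 33.3 CPM at 0.5 μM. C2 held the lowest and the third lowest of the 12 values, 7 of the 8 treated samples lay above both C2 samples (20.9% of all tested genes had at least 7 there), and the C1 samples overlapped the treated ones. Against C2 the log2 fold changes of ID2 were 0.35, 0.16, 0.38 and 0.51 (standard errors 0.17), with an adjusted p of 0.0884 by edgeR at 0.5 μM and a 95% interval of 0.15 to 0.88. Without replicate 2 of C2 these values were 0.18, -0.015, 0.21 and 0.34, so that at 0.005 μM turned in sign. C2 against C1 was -0.49, standard error 0.17, adjusted p = 0.363, and -0.66 (adjusted p = 0.0138) without replicate 1 of C1, where 10% of all genes were called, but -0.27 (adjusted p = 0.327) without replicate 2. The exons of ID2 share 145 bases with those of ID2-AS1 on the opposite strand, and with the strand of counting not given a part of the reads may belong to it.

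The 2 C1 samples are in neither group of the dose comparisons, but shared the filter, the scaling and the estimate of the spread with them. Without both of them, an alternative chosen after the values were seen, edgeR called 4 of the 10 genes at 0.5 μM, namely ID1 (-0.40, adjusted p = 0.0215), ID2 (0.51, adjusted p = 0.00768), BMPR1A (-0.39, adjusted p = 0.0217) and BMPR2 (-0.48, adjusted p = 0.0103). The share of all genes called in this way was 20%, against 6.32% with them. Leaving out replicate 1 of C1 alone gave these genes adjusted p of 0.0254, 0.0102, 0.0266 and 0.0108, and leaving out replicate 2 gave 0.023, 0.00817, 0.0222 and 0.00988, beside 18.5% and 18.8% of all genes called. At 0.05 μM ID2 (0.40, adjusted p = 0.0274), BMPR1A (-0.51, adjusted p = 0.00481) and BMPR2 (-0.37, adjusted p = 0.0373) were called without both C1 samples, where 19.2% of all genes were. At 0.005 μM BMPR1A was (-0.38, adjusted p = 0.0337), beside 12.7% of all genes, and for 0.5 against 0.0005 μM BMPR2 was (-0.43, adjusted p = 0.0451), beside 5.75%.

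ID2 was also expressed per 100 reads of ID1 in the same sample, a pair chosen after the values were seen and given as a description. The ratio was 10.7 and 18.5 in C1 and 16.0 and 14.0 in C2, then 19.1 and 20.2 at 0.0005 μM, 19.9 and 20.8 at 0.005 μM, 25.3 and 22.4 at 0.05 μM and 25.3 and 31.8 at 0.5 μM. All 8 treated samples lay above all 4 untreated samples, by a narrow margin at the lowest dose (19.1 against 18.5 in replicate 2 of C1). The same holds for 17.9% of all tested genes when they are set against ID1. The ratio needs no library size, since both genes come from the same sample. The summed CPM of ID1 to ID4 was 415 to 518 in C1, 297 to 354 in C2 and 259 to 355 in the treated samples.

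**Figure D3:**
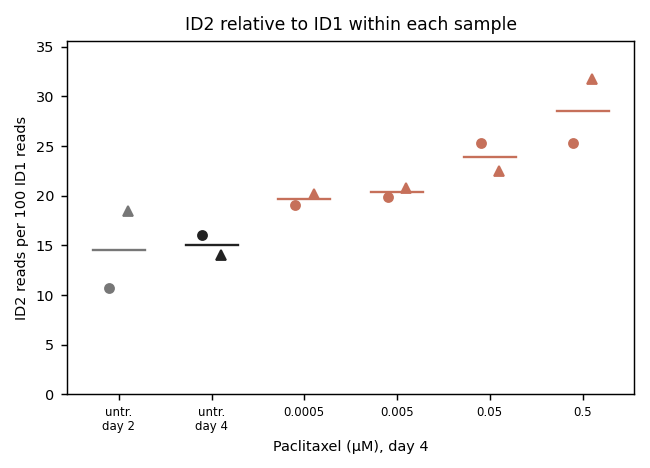
ID2 reads per 100 ID1 reads (y axis, from 0) in the 6 conditions (x axis). Circles are replicate 1, triangles replicate 2 and lines the mean of the 2. The 8 treated samples run from 19.1 to 31.8 and the 4 untreated from 10.7 to 18.5.

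The wider pathway was followed in 60 further genes in 6 lists, of which 43 were tested: other ligands (5 of 12 tested, 0.147 to 5.6 CPM on average), other receptors and co-receptors (9 of 10), other SMADs and their turnover (9 of 10, 16.0 to 172 CPM), secreted antagonists and modulators (11 of 15), other BMP-responsive genes (6 of 10) and E proteins (3 of 3). No gene of the ligand, receptor, SMAD and E protein lists passed the test at any dose, for the mean of the doses, along the doses or between the days. Their counts at an unadjusted p under 0.05 at 0.5 μM were 1 of 5, 1 of 9, 0 of 9 and 1 of 3 tested, against 22.9% of all genes. The calls lay among the antagonists and the responsive genes, which had 7 of 11 and 2 of 6 tested at this threshold. At 0.05 μM they had 6 of 11 and 5 of 6, against 23.7% of all genes. At 0.5 μM 5 antagonists were higher and 6 lower. The 6 responsive genes all had log2 fold changes above 0 at 0.0005, 0.05 and 0.5 μM, and 5 of them at 0.005 μM. For C2 against C1 all 6 were below 0. Over all 6 lists 2, 1, 2 and 2 genes were called higher and 0, 0, 2 and 1 lower at 0.0005, 0.005, 0.05 and 0.5 μM in turn, and between the days 0 in either direction, with 3 at an unadjusted p under 0.05. These 2, 1, 4 and 3 calls of 43 stand beside 2.34%, 3.28%, 8.32% and 6.32% of all genes, and the 3 between the days beside 10% of all genes at an unadjusted p under 0.05. For the mean of the doses 2 were called higher and 2 lower, beside 9.74% of all genes. The slope gave 1 higher and 2 lower, beside 3.15%. The median log2 fold change of the 43 was 0.013, -0.099, 0.048 and -0.041 at the 4 doses.

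Among the antagonists NOG fell along the doses. NOG encodes Noggin, which traps BMPs outside the cell. NOG was at 10.6 and 7.96 CPM in C1 and 10.1 and 9.90 CPM in C2, then at 8.61 and 8.67 at 0.0005 μM, 6.65 and 6.97 at 0.005 μM, 5.69 and 5.49 at 0.05 μM and 5.04 and 4.82 CPM at 0.5 μM. Every treated sample lay below both C2 samples, as for 11.3% of all tested genes, and each dose lay below the one before. NOG fell at 0.05 μM (-0.84, standard error 0.16, adjusted p = 0.00916, edgeR) and at 0.5 μM (-1.02, standard error 0.16, adjusted p = 0.00473), and had a slope of -0.27 per 10-fold dose (adjusted p = 0.00201), a call that was kept in all 14 alternatives. At 0.005 μM it was at -0.55 (adjusted p = 0.0821). The call at 0.5 μM was lost without replicate 1 of C2 (adjusted p = 0.0605) or replicate 2 at 0.5 μM (0.0681), and that at 0.05 μM without replicate 1 of C2 or either sample at 0.05 μM (0.080, 0.0531 and 0.0888).

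TWSG1, which binds BMPs together with chordin, was the most abundant of this list. TWSG1 was at 204 and 248 CPM in C1 and 268 and 232 CPM in C2, then at 219.6 and 239.5 at 0.0005 μM, 189 and 186 at 0.005 μM, 169 and 147 at 0.05 μM and 192 and 173 CPM at 0.5 μM. It fell at 0.05 μM (-0.66, standard error 0.15, adjusted p = 0.0210, edgeR) and for the mean of the doses (-0.41, adjusted p = 0.0444). The first call was lost without either C2 sample or either 0.05 μM sample (adjusted p 0.0532 to 0.181), and the second without 9 of the 10 day 4 samples in turn, all but replicate 1 at 0.05 μM (0.0550 to 0.451), and with no filter beyond 1 count (0.0522). FSTL3, a binder of activins and related ligands, fell along the doses (slope -0.24, adjusted p = 0.00455) from 15.6 ± 1.81 CPM (SD, n = 2) at 0.0005 μM to 9.55 ± 0.712 at 0.5 μM, while C2 stood at 13.9 ± 2.46. Its slope lost the call without replicate 1 at 0.0005 μM (adjusted p = 0.0859).

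BMPER, a secreted BMP-binding protein, was higher than in C2 at all 4 doses and was called at 3 of them. BMPER was at 0.562 and 0.358 CPM in C1 and 0.524 and 0.589 CPM in C2, then at 1.14 and 1.33 at 0.0005 μM, 0.944 and 1.29 at 0.005 μM, 1.50 and 1.62 at 0.05 μM and 1.08 and 1.20 CPM at 0.5 μM. All 8 treated samples lay above all 4 untreated samples, on 12 to 124 counts, and 7.39% of all tested genes had this pattern. Its fold change was called at 0.0005, 0.05 and 0.5 μM (1.15, 1.49 and 1.03, adjusted p = 0.0490, 0.00671 and 0.0462, edgeR) and for the mean of the doses (1.17, adjusted p = 0.00922), while 0.005 μM gave 1.0 (adjusted p = 0.0672). The calls at 0.0005 and 0.5 μM were each lost without any 1 sample of day 4 (adjusted p 0.0736 to 0.279 and 0.0671 to 0.304), and the latter also with only the compared samples (0.0543). The call at 0.05 μM was lost without replicate 1 of C2 (0.0873) or replicate 2 at 0.05 μM (0.0588), and that of the mean without either C2 sample (0.161 and 0.0651).

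Of the BMP-responsive genes HEY1, a transcriptional repressor that also answers to Notch, rose at all 4 doses. HEY1 was at 2.35 and 2.06 CPM in C1 and 1.92 and 1.77 CPM in C2, then at 3.71 and 3.50 at 0.0005 μM, 3.40 and 3.43 at 0.005 μM, 4.82 and 5.23 at 0.05 μM and 4.17 and 4.38 CPM at 0.5 μM. All 8 treated samples lay above all 4 untreated samples, the pattern of 7.39% of all tested genes. The log2 fold changes were 0.97, 0.89, 1.45 and 1.21 (standard errors 0.17), with adjusted p of 0.0106, 0.0153, 5.70e-04 and 0.00251 by edgeR. The calls at 0.05 and 0.5 μM were kept in all 20 alternatives, while those at 0.0005 and 0.005 μM were lost without either C2 sample or either sample of that dose (adjusted p 0.0694 to 0.10 and 0.101 to 0.133). GATA2, a transcription factor, had a slope of 0.26 per 10-fold dose (adjusted p = 0.0417), at 14.5 ± 1.33, 15.1 ± 0.380, 25.8 ± 0.307 and 21.6 ± 1.32 CPM (SD, n = 2) over the doses. The C1 samples of GATA2, at 29.0 and 12.6 CPM, spanned that whole range, and the slope lost its call without 5 of the 8 treated samples in turn (either at 0.0005 μM, replicate 2 at 0.005 or 0.05 μM, replicate 1 at 0.5 μM) at adjusted p of 0.0506 to 0.210.

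The E proteins, the partners of the ID proteins, were expressed at 62.6 CPM (TCF3), 24.4 CPM (TCF4) and 111 CPM (TCF12) on average. At 0.5 μM against C2 they gave -0.54, -0.21 and -0.30 with adjusted p of 0.276, 0.415 and 0.214 by edgeR, and at 0.05 μM -0.18, -0.39 and -0.35. All 3 had negative values at every dose and none was called.

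**Figure D4:**
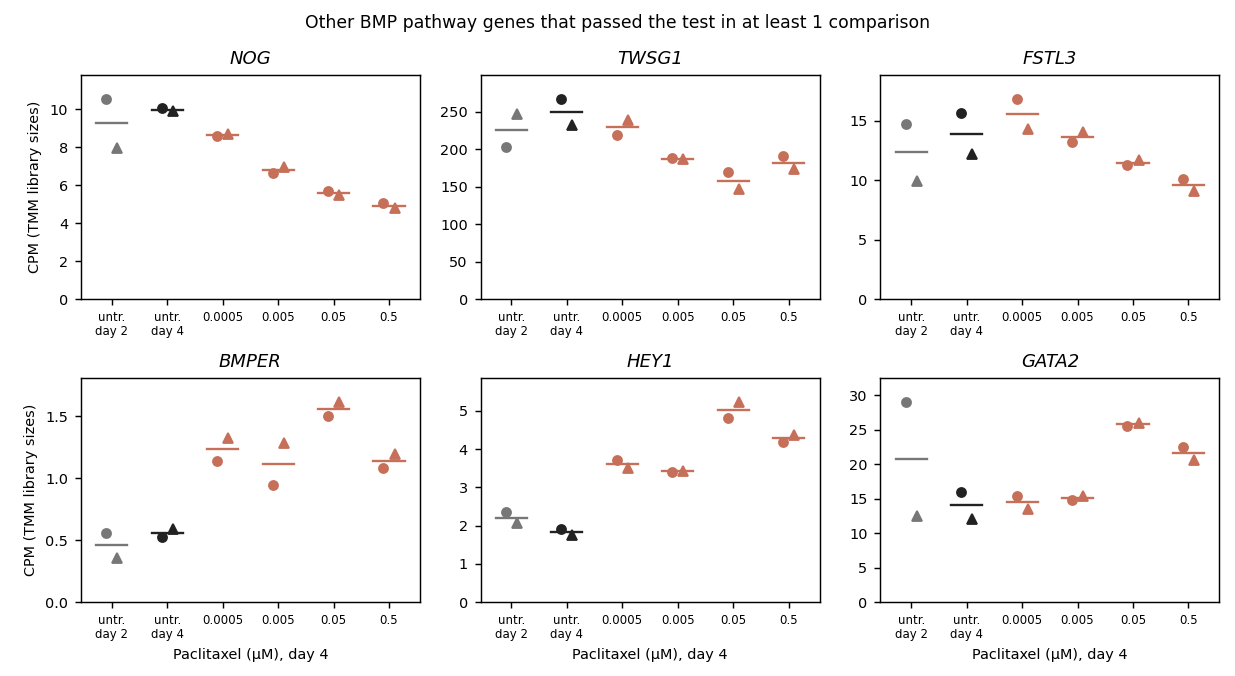
Expression in CPM with TMM library sizes (y axis, from 0) of the 6 further pathway genes that passed the test in at least 1 comparison, in the 6 conditions (x axis, untreated days and Paclitaxel dose in μM). Circles are replicate 1, triangles replicate 2 and lines the mean. The mean of NOG is 9.98 CPM in C2 and 4.93 at 0.5 μM, that of HEY1 1.84 and 4.28, and the 2 C1 samples of GATA2 lie apart.

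Genes with the most similar pattern were sought for ID1, ID3, BMP4 and BMPR2 among 11083 named genes of at least 5 CPM, by the root mean square difference of log2 CPM, each gene centred on its own mean over the 12 samples. The closest to ID1 were GMPS (0.11), UNG (0.11) and NCAPH2 (0.11), where ID1 itself had an SD of 0.36 over the samples. The closest to ID3 (SD 0.26) were AHCY (0.080), SHC1 (0.086) and DDB1 (0.088), and to BMPR2 (SD 0.22) SEC24D (0.067), NORAD (0.070) and ANTXR2 (0.071). BMP4, with an SD of 0.14, had FUT10 (0.068), ASB7 (0.072) and PLEKHA3 (0.074) as its nearest. The patterns are compared over the same 12 libraries, which share their scaling and depth.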

How the data were processed

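RNA of 12 samples (6 conditions, 2 biological replicates each) was sequenced by the authors. The deposited values are raw read counts per gene: per the labels and the study's methods, reads were checked with FastQC 0.11.9, trimmed with Trimmomatic 0.39, aligned with STAR 2.7.5 to GRCh37, and unique alignments in exons were counted by the authors per gene. The strand used in counting is not given in the sources used here, and the authors' own test was made with DESeq2. Columns of the series table that belong to no sample: 0. A sample's group came from its title. A marker of the leukocyte list is not reported here.

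Symbols came from a table of gene identifiers and names (55665 of 63568 identifiers matched), and exon lengths and coordinates from GENCODE release 44 on GRCh37. Counts were analysed in R 4.3.3 with edgeR 4.0.16 (TMM, filterByExpr by condition, robust glmQLFit and glmQLFTest, two-sided, Benjamini-Hochberg over 25249 genes, called under 0.05). One fit held all 12 samples, with 6 residual degrees of freedom and a common biological coefficient of variation of 15.6%. The slope used log10 dose in the 8 treated samples (25057 genes). CPM were computed from the counts with TMM library sizes, and log2 CPM with a prior count of 2. Depth ran from 38380629 to 79169121 counts. On simulated data for 0.5 μM against C2 with the 25249 genes, 55 of 100 genes with a log2 fold change of 1 in size and 3 of 100 with 0.5 were recovered, with 3 false calls. Only these genes were changed there, and only at 0.5 μM, which is fewer than the 1596 called in the data. The recovery in the data may therefore differ. The labels call the replicates biological without naming separate cultures, so p-values measure the spread between these samples.

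All 10 members were named, with their Ensembl identifiers, and of the pathway lists each gene past the threshold in a comparison other than 0.5 against 0.0005 μM that averaged at least 0.5 CPM. The members and lists were chosen with earlier results of these data known. The alternatives were DESeq2 1.42.0, RLE normalization, 2 other filters (at least 1 count over all samples, or a mean of at least 10), a replicate block, a fit of only the compared samples, offsets for GC content and length, both untreated days as the control, leaving out each sample and, chosen after seeing the data, leaving out both C1 samples and running the same alternatives on the pathway genes.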

Additional observations from a re-analysis of the deposited data

How the results depend on the processing

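Each comparison rests on 2 samples per condition, and each of the 10 genes was counted at least 68 times in every sample. Over all single-gene values, 1658 of 1852 alternatives kept direction and side of the threshold, 91 lost a call, 45 gained one and 58 turned in sign, and the cause was not tested.

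The count of all genes called at 0.0005 μM was 592, and 1173 with DESeq2, 1480 with no filter beyond 1 count, 1247 with GC content and length offsets, 2624 with only the compared samples and 2576 without both C1 samples. At 0.005 μM 827 became 1362, 1909, 1430, 2592 and 3187 in the same order. At 0.05 μM 2100 became 4817 without both C1 samples. At 0.5 μM 1596 became 2807 with no filter, 2552 with offsets, 2578 with only the compared samples and 5033 without both C1 samples. For C2 against C1, 82 became 243 with DESeq2, 390 with no filter, 196 with offsets and 0 with only the compared samples (4 samples, 2 residual degrees of freedom). For the mean of the doses 2460 became 5647 with only the compared samples and 6629 with both untreated days as the control. For the slope 789 became 1519 with DESeq2, 1462 with no filter, 421 with the replicate block and 1350 with offsets. For 0.5 against 0.0005 μM 104 became 516 with DESeq2, 895 with no filter, 365 with offsets, 1662 with only the compared samples and 1443 without both C1 samples. Offsets moved the share of higher calls from 79.6% to 69.4% at 0.0005 μM, from 76.3% to 66.0% at 0.005 μM, from 98.8% to 84.7% for C2 against C1 and from 18.3% to 32.3% for 0.5 against 0.0005 μM.

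Brackets here and in the next paragraph give the share of all genes called in the same setting. The members called at 0.005 μM were 0, and 1 with only the compared samples (11%) and 1 without both C1 samples (12.7%). At 0.05 μM 1 became 0 with no filter (5.65%), 0 with offsets (11.6%) and 3 without both C1 samples (19.2%). At 0.5 μM 0 became 1 with only the compared samples (11.4%) and 4 without both C1 samples (20%). For C2 against C1 0 became 2 with DESeq2 (0.962%). For the mean of the doses 1 became 0 with no filter (6.89%) and 0 with offsets (13.7%). It became 3 with only the compared samples (22.5%) and 4 with both untreated days (26.3%). For the slope 1 became 3 with DESeq2 (6.06%) and 0 with the replicate block (1.68%). For 0.5 against 0.0005 μM 0 became 1 with only the compared samples (7.22%) and 1 without both C1 samples (5.75%).

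The pathway list genes called at 0.0005 μM, 2 of 43 tested, became 4 with offsets (4.94%). They became 5 with only the compared samples (12%) and 5 without both C1 samples (10.3%). At 0.005 μM 1 became 3 with DESeq2 (5.39%), 3 with no filter (3.9%) and 3 with offsets (5.66%). It became 6 with only the compared samples (11%) and 6 without both C1 samples (12.7%). At 0.05 μM 4 became 9 with no filter (5.65%), 8 with offsets (11.6%), 8 with only the compared samples (12.6%) and 11 without both C1 samples (19.2%). At 0.5 μM 3 became 8, 7, 5 and 16 in the same order (5.74%, 10.1%, 11.4% and 20%). For the mean of the doses 4 became 9 with offsets (13.7%), 17 with only the compared samples (22.5%) and 15 with both untreated days (26.3%). For the slope 3 became 5 with DESeq2 (6.06%), 5 with no filter (3.03%) and 6 with offsets (5.39%).

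Leaving out 1 sample at a time gave 144 to 2552 genes called at 0.0005 μM, 85 to 3316 at 0.005 μM, 321 to 4843 at 0.05 μM, 129 to 5046 at 0.5 μM, 47 to 2682 for C2 against C1, 237 to 5664 for the mean, 123 to 1008 for the slope and 6 to 1412 for 0.5 against 0.0005 μM. The lowest counts came without replicate 1 of C2 in the comparisons with C2, without replicate 1 at 0.0005 μM for the slope and without replicate 2 at 0.5 μM for the last. The members called ran from 0 to 0, 0 to 1, 0 to 3, 0 to 4, 0 to 4, 0 to 3, 0 to 1 and 0 to 1 in the same order. The pathway list genes called ran from 0 to 5, 0 to 8, 1 to 12, 1 to 16, 0 to 6, 1 to 15 and 1 to 3.

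Signs turned for these values. With offsets ID4 at 0.0005 μM became -0.036, BMPR2 at 0.0005 μM 0.053, SMAD9 at 0.05 μM 0.089, BMP2 at 0.5 μM 0.027 and SMAD6 at 0.5 μM 0.042. With no filter ID3, BMP4 and SMAD9 at 0.05 μM became 0.015, 0.0085 and 0.0086. With only the compared samples ID3, BMP4 and SMAD9 at 0.05 μM became 0.026, 0.019 and 0.019, and BMP2 at 0.5 μM 0.00078. With a mean count of at least 10, ID3 at 0.05 μM became 0.0053 and BMP2 at 0.5 μM 0.0057. BMP2 at 0.5 μM was 0.0053 with the replicate block, ID3 at 0.05 μM 0.0030 without both C1 samples, BMPR1A for C2 against C1 -0.0032 with DESeq2 and -0.0036 with RLE, and BMP4 for the mean 0.039 with both untreated days.

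Leaving out 1 sample turned signs within these ranges. At 0.0005 μM they were -0.11 to 0.046 for ID1, -0.0096 to 0.38 for ID3, -0.13 to 0.16 for ID4, -0.12 to 0.19 for BMP4 and -0.20 to 0.093 for BMPR2. At 0.005 μM they were -0.015 to 0.34 for ID2, -0.29 to 0.10 for ID3, -0.24 to 0.049 for ID4, -0.020 to 0.48 for BMP2 and -0.43 to 0.0066 for SMAD6. At 0.05 μM they were -0.21 to 0.18 for ID3, -0.18 to 0.14 for BMP4, -0.33 to 0.10 for SMAD6 and -0.10 to 0.043 for SMAD9. At 0.5 μM they were -0.25 to 0.25 for BMP2, -0.10 to 0.22 for BMP4 and -0.42 to 0.015 for SMAD6. For C2 against C1 they were -0.15 to 0.55 for BMP2, -0.0076 to 0.31 for BMP4, -0.092 to 0.14 for BMPR1A, -0.090 to 0.37 for BMPR2 and -0.79 to 0.061 for SMAD6. For the mean they were -0.23 to 0.16 for ID3, -0.20 to 0.12 for BMP4 and -0.42 to 0.0092 for SMAD6, and for 0.5 against 0.0005 μM -0.057 to 0.11 for BMP4.

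Replicate numbers are shared between conditions in the labels. Over the 15 pairs of conditions, the correlation of same-numbered deviations over 11193 genes ran from -0.60 to 0.70, above 0.1 in 8 pairs, so the numbers were not taken to pair the samples. The replicate block called 421 genes for the slope and lost the calls of BMPR2 (adjusted p = 0.0727) and GATA2 (0.0728) there.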
